A study of Rattus norvegicus with 16 samples.

Results

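Heat shock proteins are chaperones that hold, fold or disaggregate other proteins, and their mRNAs are the classic targets of heat shock factor 1. HSP70 proteins work in cycles with HSP40 cochaperones, nucleotide exchange factors and HSP90, while the HSP60 and HSP10 pair folds proteins in the mitochondrial matrix. In liver, as in other tissues, some of these genes are expressed all the time and others are strongly inducible by heat, oxidants and other protein-damaging stress.

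The genes described here were 10 cytosolic and mitochondrial chaperones chosen by symbol, out of 17055 gene symbols counted in each library: the HSP70 genes Hspa1b and Hspa8, their partners Dnajb1, Hsph1 and Bag3, the small heat shock protein Hspb1, the HSP90 genes Hsp90aa1 and Hsp90ab1, and the mitochondrial pair Hspd1 and Hspe1. All 10 symbols were present in the files. mRNA was counted in 16 liver libraries, 4 per group, from 10-week-old male Sprague-Dawley rats, each library being a pool of 3 rats. Isoflurane-Sepsis (libraries 1 to 4) and Isoflurane control (libraries 5 to 8) rats were induced and kept under isoflurane, whereas Propofol-Sepsis (libraries 9 to 12) and Propofol control (libraries 13 to 16) rats were induced with ketamine and xylazine and kept under a propofol infusion. Sepsis was made by cecal ligation and puncture (CLP), in which the cecum is tied off and holed. Controls had a celiotomy with the cecum handled and put back. Every rat breathed 100% oxygen on a ventilator, lay on a heating pad with a rectal probe set to a target of 37 °C, and gave its liver 8 h after the celiotomy.

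Each library held between 14199422 and 49937173 reads assigned to genes, with a median of 19735458. Albumin took between 5.61% and 9.03% of them, and all 10 hepatocyte markers were present. Library 10 stood apart by its brain markers, which summed to 359.5 CPM (counts scaled to one common library size) against 4.81 to 24.8 CPM in the other libraries. Library 9 stood apart in the chaperones themselves, as described next, so each result that rests on it is given with and without it. Names of the deposited libraries carry one prefix for all isoflurane libraries and another for all propofol libraries, so anesthetic, induction drugs and library set cannot be told apart wherever the anesthetics are compared. Within an anesthetic, all libraries share these.

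The heat shock factor binds repeats of a 3-base unit, GAA, in alternating orientation. The 250 bases before each annotated transcription start (RefSeq, assembly GRCr8) were therefore searched on both strands for a pair of units (TTCNNGAA or GAANNTTC) and for a run of 3 (TTCNNGAANNTTC or GAANNTTCNNGAA, each of which contains a pair of either kind). Of the 10 chaperones, 8 matched the promoter table, and Hspa1b and Hsp90aa1 did not. A pair was found for 7 of these 8 and a run of 3 or more for 4 of 8, against 13.5% and 0.663% of all 33469 promoters in the table. Hsp90ab1 held neither. The stretches below are those of the genes that varied most between libraries, plus the one that Hspd1 and Hspe1 share, with the matching letters in capitals.
Hsph1: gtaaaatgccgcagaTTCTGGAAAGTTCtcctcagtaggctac
Dnajb1: gcatcgggaggggcgGAAGGTTCtgg
Bag3: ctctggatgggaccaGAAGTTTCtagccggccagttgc
Hspb1: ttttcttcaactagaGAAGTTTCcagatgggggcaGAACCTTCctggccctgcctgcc
Hspe1: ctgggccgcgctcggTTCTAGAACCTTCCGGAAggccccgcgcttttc

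The Hsph1 stretch is chr12:10427317-10427359 on the plus strand and ends 9 bases before the start. That of Dnajb1 is chr19:41431142-41431167 on the minus strand, directly before the start. Bag3 is shown at chr1:192533313-192533350 on the plus strand, and Hspb1 at chr12:26432388-26432445 on the minus strand, where 2 pairs lie 109 and 129 bases before the start, counted to their first base. The Hspe1 stretch, chr9:64084247-64084294 on the plus strand, has 4 units in a row. It lies between Hspe1 and Hspd1, which are read in opposite directions from annotated starts 290 bases apart, so the same letters serve both genes. These matches describe the sequence only, and binding was not measured.

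**Figure D1:**
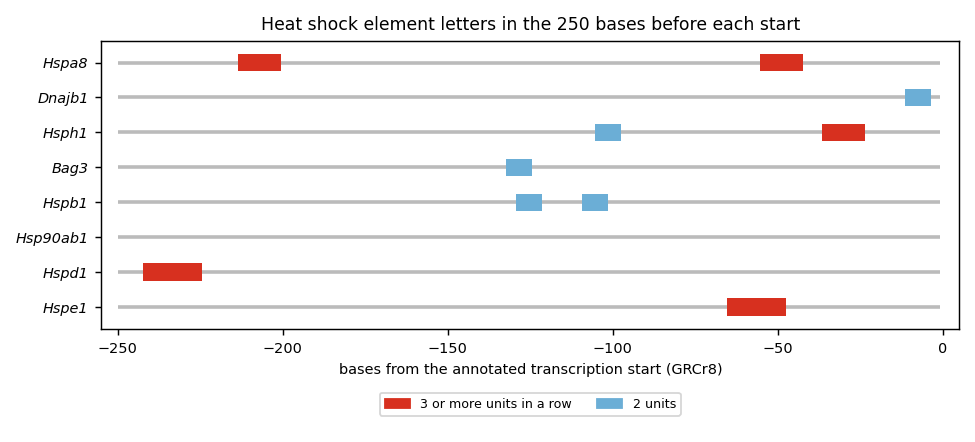
Position of heat shock element letters in the 250 bases before the annotated start of the 8 chaperones in the promoter table. The x axis is distance from the start in bases, red boxes are runs of 3 or more units and blue boxes are pairs. Hsp90ab1 holds none, and the red boxes of Hspd1 and Hspe1 are the same stretch seen from either gene.

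Library 9, a Propofol-Sepsis pool, had by far the highest level of the inducible chaperones. Hspa1b, the stress-inducible cytosolic HSP70, was at 35.1 CPM there (618 reads) and at 0.953, 1.94 and 2.00 CPM in Propofol-Sepsis libraries 10, 11 and 12. Hspb1, the small chaperone HSP27, was at 199 CPM against 9.81, 11.6 and 12.9 CPM. Dnajb1, the HSP40 that delivers clients to HSP70, was at 231 CPM against 32.9, 35.5 and 37.9 CPM. The other libraries of the group lay within or near the range of the controls for these genes, and library 9 lay far above every other library of the series. Relative to the median of libraries 10 to 12, its level was 18.1 times as high for Hspa1b, 17.2 for Hspb1, 6.51 for Dnajb1, 3.23 for Bag3, 2.16 for Hsph1 and 1.74 for Hsp90aa1. The mitochondrial pair was raised less, to 1.43 times for Hspd1 and 1.48 times for Hspe1, and Hsp90ab1 was at 1.20 times.

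Library 9 was the highest of all 16 for 8 of the 9 chaperones that passed the filter on low counts, whereas it was the highest for 1.90% of the 10621 genes tested. A ratio above 1.5 was seen for 6 of the 9 and for 3.47% of all genes, and the median ratio over all genes was 0.996. Of 62 further chaperone genes tested, only 3 passed a ratio of 1.5, and these are named after their values were seen. They were the HSP40 Dnaja4 (26.5 against 4.81 CPM), the small chaperone Cryab (5.05 against 1.41 CPM) and the HSP90 cochaperone Fkbp4 (121 against 70.2 CPM). Cryab was also at 3.95 CPM in library 10. The neutrophil and monocyte markers of library 9 summed to 50.4 CPM in a group range of 40.1 to 56.9. Its hepatocyte markers summed to 92755 CPM in a range of 86073 to 92755. Of its reads 22.4% fell on no gene, against 21.6% to 25.4% over the series. Its brain markers, at 24.8 CPM, were the highest after those of library 10, with 12.4 and 10.8 CPM in libraries 11 and 12. As 1 pool of 3 rats, it cannot show whether all 3 animals or 1 of them had such levels.

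**Figure D2:**
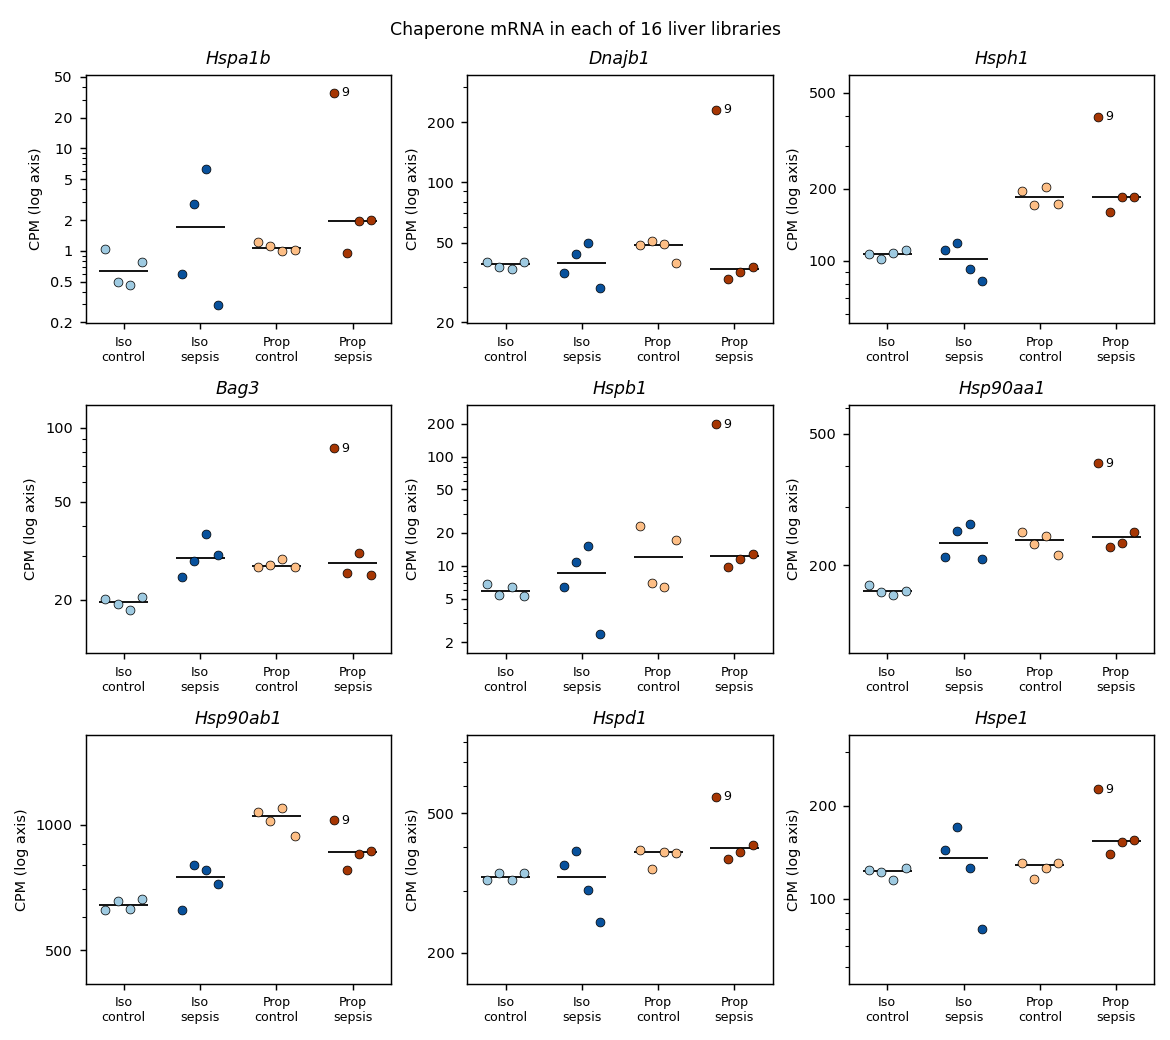
Level of the 9 chaperones with enough reads in each of the 16 libraries, in CPM on a log axis. Each point is 1 library, a pool of 3 rats, horizontal lines are group medians, and library 9 is labelled: it is the highest point for every gene except Hsp90ab1.

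Hspa8, the constitutive HSP70, had between 0 and 6 reads per library and was not tested. Its symbol is thus listed at or near 0, from which no level was drawn. In the GRCr8 annotation 2 small nucleolar RNA genes lie within Hspa8, and the part of overlapping genes in these counts was not tested. Hspa1a, a nearly identical copy of Hspa1b, was listed at 0 in every library, so values under Hspa1b may hold reads of either gene. In GRCr8 the full span of Hspd1, which reaches beyond the start used above, runs into the first bases of Hspe1, and the span of Hsp90aa1 overlaps that of LOC102549239, and the counting was not stated to use strand. Several of these genes also have processed pseudogenes in rat, and how reads with several matches were counted is not given in the sources used here. In tissue, fewer cells of a type and less RNA per cell cannot be told apart.

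Under isoflurane, sepsis raised 2 of the 9 chaperones, Bag3 and Hsp90aa1, and lowered none. Bag3, the nucleotide exchange factor that couples HSP70 to autophagy, was at 24.8, 28.8, 37.1 and 30.4 CPM in Isoflurane-Sepsis libraries 1 to 4 and at 20.1, 19.3, 18.2 and 20.5 CPM in the controls. Hsp90aa1, the inducible cytosolic HSP90, was at 212, 254, 267 and 209 CPM with sepsis and at 174, 166, 162 and 168 CPM without. For both genes every septic library lay above every control. Bag3 rose by 0.65 on the log2 scale (SE 0.13, adjusted p = 0.00290) and Hsp90aa1 by 0.51 (SE 0.097, adjusted p = 0.00275) in the quasi-likelihood test of edgeR with Benjamini-Hochberg adjustment. The 2-sided exact permutation p was 0.0286 for each, the smallest that 4 libraries against 4 can give. Background was high in this comparison, with 25.7% of 10361 genes called higher and 24.4% lower, so 2 of 9 is near the share of all genes. Groups did not overlap, with sepsis higher, for 23.4% of genes.

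The remaining chaperones were not called under isoflurane. Hspa1b was at 0.595, 2.84, 6.31 and 0.294 CPM with sepsis and at 1.04, 0.492, 0.467 and 0.777 CPM without. Only libraries 2 and 3 were above the controls, and the difference of 1.86 on the log2 scale (SE 0.81) had an adjusted p of 0.0804. Hspb1 followed the same libraries, at 6.34, 10.9, 15.2 and 2.36 CPM against 5.23 to 6.78 CPM in controls (difference 0.57, SE 0.44, adjusted p = 0.305). Hsp90ab1, the constitutive HSP90, was at 624, 803, 780 and 722 CPM against 626 to 664 CPM (0.20, SE 0.091, adjusted p = 0.0897). Library 4 was the lowest of its group for Hspa1b, Hspb1, Hsp90aa1, Dnajb1, Hsph1, Hspd1 and Hspe1.

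Dnajb1 ranged from 29.6 to 49.8 CPM with sepsis and from 36.6 to 40.0 CPM without, a difference of 0.051 (95% interval -0.28 to 0.38). Hsph1, the HSP110 exchange factor of HSP70, ranged from 82.6 to 118.5 CPM with sepsis and from 102 to 111 CPM without (-0.063, interval -0.30 to 0.17). Hspd1, the mitochondrial HSP60, ranged from 245 to 392 CPM and from 323 to 338 CPM (-0.016, interval -0.30 to 0.27). Hspe1, its HSP10 lid, ranged from 79.5 to 171 CPM and from 115 to 125 CPM (0.11, interval -0.31 to 0.54). For these 4 genes the septic libraries reached both above and below the controls. HSP60 protein was the loading control of the mitochondrial immunoblots in the study, and the mRNA values here do not measure that protein.

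These calls depended on the libraries used. Without library 1, Hsp90ab1 and Hspa1b were also called (adjusted p = 0.00986 and 0.0325), and without library 4, Hspa1b, Hspb1 and Hspe1 were (0.0238, 0.0253 and 0.0359). With all 16 libraries in 1 fit, Bag3 was no longer called (adjusted p = 0.0700), while DESeq2 also called Hspa1b (adjusted p = 0.031). Summed markers of neutrophils and monocytes were higher with sepsis, at 38.9, 79.6, 125 and 103 CPM in Isoflurane-Sepsis libraries 1 to 4. The controls lay at 19.4 to 22.4 CPM, and of the 10 markers Ly6c was listed at 0 throughout. Summed hepatocyte markers were lower with sepsis (105660 to 113814 against 127803 to 137740 CPM), as were summed endothelial markers (128.6 to 144.1 against 170.9 to 208.3 CPM). Among endothelial markers Kdr, Stab2 and Lyve1 were called lower (-2.17, -0.64 and -0.38), and Pecam1, Cdh5 and Tie1 were not called. Among hepatocyte markers Alb, Apoa1, Ass1, Cyp2c11 and Fabp1 were called lower, and Ttr, Apoc3, Serpina1, Cps1 and Tat were not called. The part of all these markers in the chaperone values was not tested.

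**Figure D3:**
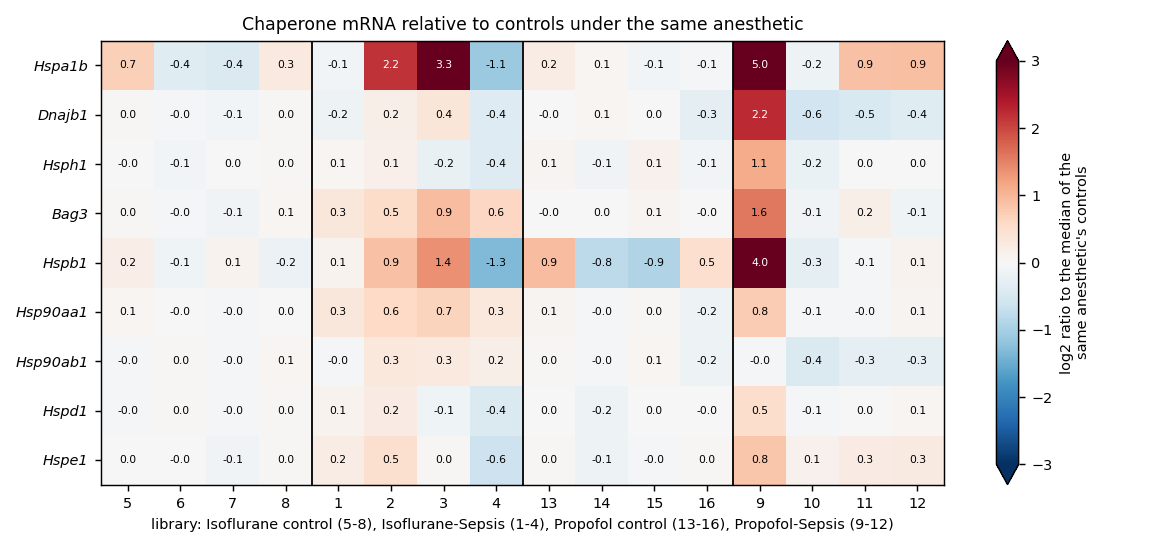
Level of each chaperone in each library as a log2 ratio to the median of the 4 controls under the same anesthetic, with colors saturating at 3 in either direction. Controls stay near 0 except for Hspa1b and Hspb1, library 9 is high for all genes but Hsp90ab1, and libraries 2 and 3 are high for Hspa1b and Hspb1.

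Other members of the chaperone network, taken from lists of 73 related genes of which 69 were in the files and 62 were tested, were called in 27 cases with sepsis under isoflurane. The 20 higher and 7 lower make 32.3% and 11.3% of the list, against 25.7% and 24.4% of all genes, and the median difference was 0.053 against 0.0061 over all genes. With library totals the split was 15 higher and 12 lower, and that of all calls moved from 51.3% to 43.0% higher. All 3 tested HSP70 relatives rose, namely Hspa4 (0.53, adjusted p = 0.000915) and Hspa4l (1.47, 0.0162), both of the HSP110 type, and the ribosome-associated Hspa14 (0.41, 0.0230). Of 7 BAG proteins and related regulators 5 rose, among them Bag1 (0.57, 0.00212), Bag5 (0.43, 0.00542) and Bag6 (0.24, 0.00737). Hspb8, the small heat shock protein that works with Bag3, rose by 1.33 (SE 0.25, adjusted p = 0.00286), at 246, 275, 439 and 512 CPM with sepsis against 111 to 173 CPM in controls, whereas the small chaperone Hspb6 fell by 1.15 (0.0101). Hspb6 was low, at 0.935 to 1.70 CPM in controls and 0.412 to 0.942 CPM with sepsis. Of 8 further HSP40 genes, Dnajb6, Dnajb2 and Dnajb5 rose (0.32, 0.41 and 0.53) and none fell. Heat shock factor 1 mRNA, Hsf1, rose by 0.41 (adjusted p = 0.00299), from 18.1 to 20.2 CPM in the controls to 23.4 to 26.8 CPM, and that of Hsf4 fell by 0.64 (0.0492). Hsf4 was low, at 1.48 to 1.96 CPM in controls and 0.707 to 1.49 CPM with sepsis.

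Among HSP90 cochaperones, 1 fell. Fkbp4, an immunophilin of steroid receptor complexes, fell by 1.22 (SE 0.21, adjusted p = 0.00174), from 82.2 to 89.8 CPM in controls to 20.6 to 48.2 CPM with sepsis. In the same list of 12 tested genes Ahsa2 and Cdc37 rose (0.33 and 0.21) and 9 were not called. Of 7 other mitochondrial chaperones 3 fell, where 24.4% of all genes did, and among them were the HSP40 Dnaja3 (fell by 0.64, adjusted p = 0.00494) and the iron-sulfur cochaperone Hscb (fell by 0.50, 0.00884), and the exchange factor Grpel2 rose (0.60, 0.00819). Of 12 cytosolic chaperonin (CCT) and prefoldin subunits, Cct4 and Cct3 rose (0.32 and 0.23), Pfdn1 fell (by 0.34) and 9 were not called. The ubiquitin gene Ubb rose by 0.28 (adjusted p = 0.0102), and neither of the 2 tested matrix proteases was called.

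Under propofol, sepsis was followed by a call for 2 of the 9 chaperones, both higher, and the call for Hspa1b depended on which libraries were kept. Hspe1 was at 226, 140, 153 and 155 CPM in Propofol-Sepsis libraries 9 to 12 and at 131, 116, 125 and 131 CPM in the controls. All septic libraries lay above all controls, as for 20.1% of genes (21.5% without library 9), and the rise was 0.42 (SE 0.13, adjusted p = 0.0300 in edgeR), or 0.25 (SE 0.071, 0.0255) without library 9. Hspa1b rose by 3.17 (SE 1.13, adjusted p = 0.0456), with controls at 1.23, 1.11, 1.01 and 1.01 CPM. Without library 9 the difference was 0.59 (SE 0.29, adjusted p = 0.134), and without libraries 9 and 10 it was 0.85 and again called (adjusted p = 0.00981). The background was 20.4% of 10348 genes higher and 21.7% lower, or 17.4% and 19.2% of 10461 without library 9. Scaling by library totals alone changed the split of all calls from 48.4% higher to 38.3% higher.

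Without library 9, 2 further chaperones were called, both lower with sepsis. Dnajb1 was at 48.5, 51.1, 49.0 and 39.7 CPM in Propofol control and, library 9 aside, at 32.9 to 37.9 CPM in Propofol-Sepsis. Its difference was 0.83 (SE 0.60, adjusted p = 0.283) with library 9 and -0.41 (SE 0.096, adjusted p = 0.0111) without. Hsp90ab1 was at 1076, 1024, 1095 and 942 CPM in the controls and at 1025, 779, 852 and 867 CPM with sepsis, with library 9 the first of these. The difference was -0.23 (SE 0.084, adjusted p = 0.0521) with library 9 and -0.31 (SE 0.072, adjusted p = 0.0103) without. Both genes thus lay below all controls in 3 of 4 septic pools, library 9 being the exception. Without it the groups did not overlap, as was so in this direction for 23.6% of genes.

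The other 5 chaperones of the propofol groups were called neither with nor without library 9. Hsph1 was at 398, 159, 184 and 184 CPM against 171 to 202 CPM, a difference of 0.32 (SE 0.25) with library 9 and -0.073 (interval -0.27 to 0.12) without. Bag3 was at 82.6, 25.6, 31.1 and 25.3 CPM against 27.2 to 29.2 CPM, with 0.55 (SE 0.35) and -0.031 (interval -0.23 to 0.16) for the same pair of fits. Hspb1 was the most variable among controls, at 23.03, 6.95, 6.42 and 17.1 CPM, and its difference was 2.12 (SE 1.01, adjusted p = 0.115) with library 9 and -0.21 (interval -1.15 to 0.72) without. Hsp90aa1, at 408, 227, 234 and 253 CPM against 214 to 252 CPM, differed by 0.25 (SE 0.17) and by 0.017 (interval -0.16 to 0.19). Hspd1, at 558, 372, 389 and 406 CPM against 346 to 393 CPM, differed by 0.19 (SE 0.12) and by 0.042 (interval -0.12 to 0.20).

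The propofol calls were also sensitive to the controls, since leaving out any 1 of libraries 13 to 16 ended both: the adjusted p then lay between 0.0891 and 0.100 for Hspa1b and between 0.0543 and 0.0817 for Hspe1. DESeq2 and limma-voom called Hspe1 and, as lower, Hsp90ab1. Hspe1 was not called with library totals or with all 16 libraries in 1 fit (adjusted p = 0.0520 and 0.0644), nor Hspa1b with limma-voom or without the filter on low counts (0.329 and 0.0561). Neutrophil and monocyte markers summed to 40.1 to 56.9 CPM in Propofol-Sepsis and to 20.5 to 29.5 CPM in Propofol control, and their part was not tested.

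**Figure D4:**
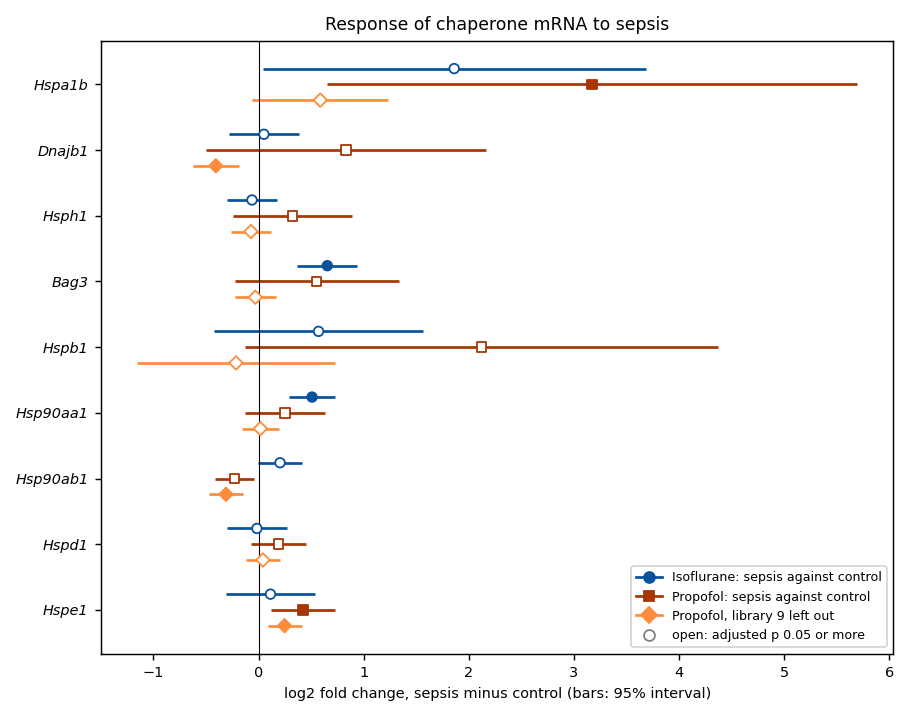
Difference between sepsis and control for each chaperone, as log2 fold change with its 95% interval, under isoflurane (circles), under propofol (squares) and under propofol without library 9 (diamonds). Filled symbols have an adjusted p below 0.05: Bag3 and Hsp90aa1 under isoflurane, Hspa1b and Hspe1 under propofol, and Dnajb1, Hsp90ab1 and Hspe1 without library 9.

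In the wider lists under propofol, 9 of 62 tested genes rose and 12 fell, or 14.5% and 19.4% against 20.4% and 21.7% of all genes, with a median difference of 0.0035 against -0.0016 over all genes. Without library 9 the counts were 4 and 11, and with library totals they were 4 and 16. Fkbp4 fell by 0.76 (SE 0.16, adjusted p = 0.00473), or by 0.97 (0.000170) without library 9, where it was at 68.5 to 81.0 CPM against 134 to 156 CPM in controls. The HSP40 Dnaja1 fell by 0.53 (0.00927) or 0.69 (0.000672), while its relatives Dnajb6 and Dnajb5 rose (0.47 and 0.58), as they also did without library 9 (0.47 and 0.62). Hsf2 fell by 0.62 (0.000315) and Hsf4 by 1.41 (0.00448), and Hsf1 differed by 0.0043 (adjusted p = 0.972). Hsf4 was low, at 0.918 to 1.56 CPM in controls and 0.284 to 0.715 CPM with sepsis. Tcp1, a CCT subunit, fell by 0.36, the matrix protease subunit Clpx by 0.43, and the collagen chaperone Serpinh1 by 0.60 (adjusted p = 0.00320, 0.0131 and 0.00537). Among mitochondrial chaperones Dnaja3 and Trap1 fell (by 0.39 and 0.40). Of 7 BAG and related genes 3 rose, among them Bag1 by 0.31 (0.00147), and 1 rose without library 9. Of 8 further HSP40 genes 3 rose, or 2 without library 9. Of 3 tested HSP70 relatives 1 rose, or 0 without library 9. Of 7 other mitochondrial chaperones 1 rose with and without library 9. Of 4 other heat shock factor targets 1 rose, or 0 without library 9.

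Whether the response to sepsis differed between the anesthetics was tested by the interaction over all 16 libraries. None of the 9 chaperones passed in edgeR, where 1 had an unadjusted p below 0.05, while DESeq2 called 1 and limma-voom 0. Of all 10621 genes 2.72% passed adjustment in edgeR, and the share with an unadjusted p below 0.05 was not counted. Among the 9 chaperones the gene with the smallest p was Hsp90ab1. Its change under isoflurane exceeded that under propofol by 0.42 (95% interval 0.16 to 0.68, adjusted p = 0.0694), and DESeq2 called this difference (0.43, adjusted p = 0.0242). It was also called by edgeR without library 1 (0.49, adjusted p = 0.0111). The differences were -1.33 for Hspa1b (interval -4.60 to 1.93) and -1.56 for Hspb1 (-4.17 to 1.04). These intervals were wide, so a larger response under either anesthetic was not excluded for these genes. Both differences changed sign without library 9.

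Without library 9, 4 of the 9 had an unadjusted p below 0.05 and none passed adjustment. Of all 10700 genes 0.888% passed adjustment. The share of all genes with an unadjusted p below 0.05 was not counted, so the 4 of 9 have no background beside them. The differences were then 0.50 for Hsp90ab1 (adjusted p = 0.0524), 0.67 for Bag3 (0.0539), 0.48 for Hsp90aa1 (0.0700) and 0.44 for Dnajb1 (0.199), each given as the change under isoflurane minus that under propofol. Bag3 and Hsp90aa1 had risen under isoflurane, and Dnajb1 and Hsp90ab1 had fallen under propofol without library 9. The differences of Hspd1, Hspe1 and Hsph1 were -0.069, -0.15 and -0.00091. Those of Hspa1b and Hspb1 were 1.25 (interval -0.81 to 3.30) and 0.77 (interval -0.64 to 2.17). Of the wider lists 2 of 62 genes, or 3.23% against 2.72% of all genes, were called with all libraries, both with the larger change under isoflurane. Hspa4 differed by 0.51 (SE 0.12, adjusted p = 0.0360) and by 0.58 (0.0337) without library 9. Hspb8 differed by 1.23 (SE 0.30, adjusted p = 0.0459) and by 1.26 (0.0765) without library 9. Neither was called when any 1 of libraries 3, 5 to 8 or 11 to 15 was left out.

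Chaperone mRNAs were lower in control livers under isoflurane than under propofol. Of the 9 tested, 7 were called lower and none higher, against a background of 21.7% of 10314 genes lower and 21.6% higher. Hsph1 was at 107, 102, 108 and 111 CPM in Isoflurane control and at 195, 171, 202 and 173 CPM in Propofol control, a fall of 0.79 (SE 0.063, adjusted p = 1.24e-05). Hsp90ab1 was at 626, 655, 628 and 664 CPM against 942 to 1095 CPM, lower by a log2 difference of -0.68 (SE 0.055, adjusted p = 1.38e-05). Bag3 (-0.51, SE 0.056, adjusted p = 6.79e-05) and Hsp90aa1 (-0.49, SE 0.057, adjusted p = 9.42e-05) followed. For these 4 genes and for Hspd1 (-0.19, SE 0.052, adjusted p = 0.0128) the groups did not overlap, as was the case in this direction for 20.3% of all genes.

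Dnajb1 (-0.28, SE 0.076, adjusted p = 0.0126) and Hspb1 (-1.16, SE 0.36, adjusted p = 0.0239) were called although the groups overlapped. The Hspb1 call was lost without library 6, 8, 13 or 16, with adjusted p between 0.0578 and 0.0685. Hspa1b differed by -0.61 (SE 0.25, adjusted p = 0.0734), and was called without library 5 (-0.80, adjusted p = 0.0293). Hspe1 differed by -0.046 (interval -0.16 to 0.072). Scaling by library totals shifted the median of all genes in this comparison to -0.15 and the split of all calls from 49.8% to 22.9% higher, and all 9 chaperones were then called lower, with Hsph1 at -0.94 and Hsp90ab1 at -0.82. With all 16 libraries in 1 fit, Hsph1, Hsp90ab1 and Hsp90aa1 were called and the other 4 were not. Summed hepatocyte markers differed too, at 127803 to 137740 CPM in Isoflurane control and 92342 to 101994 CPM in Propofol control. Alb alone took 8.44% to 9.03% of assigned reads in Isoflurane control and 6.65% to 7.29% in Propofol control. The sums therefore do not show that each marker differed. The part of these markers in the chaperone values was not tested.

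In the same comparison 25 of 62 list genes were lower, 4 were higher and 33 were not called. The shares of 40.3% lower and 6.45% higher stand against 21.7% and 21.6% of all genes, with a median of -0.13 against -0.00049 over all genes. All 8 CCT subunits were lower, among them Tcp1 (-0.53, adjusted p = 1.88e-05), Cct6a (-0.47, 3.59e-05) and Cct3 (-0.51, 5.41e-05). Tcp1 was at 83.1 to 86.4 CPM in Isoflurane control and at 117 to 127 CPM in Propofol control. Of the 12 HSP90 cochaperones 6 were lower, led by Fkbp4 (-0.74, adjusted p = 9.87e-06), by the HSP70 to HSP90 adaptor Stip1 (-0.62, 2.32e-05) and by St13 (-0.59, 0.000658). Hsf2 (-0.35, 0.00293), Hspa4 (-0.30, 0.00240), Dnaja1 (-0.44, 0.000532), Dnaja3 (-0.39, 0.000110) and Cacybp (-0.54, 0.000137) were lower as well. Grpel2 (0.41, 0.00160) and Hspa14 (0.29, 0.0249) were higher, as were Pfdn1 (0.22, 0.00454) and Dnajb6 (0.16, 0.0498), these last named after their values were seen. None of the 7 BAG and related genes was called in edgeR.

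**Figure D5:**
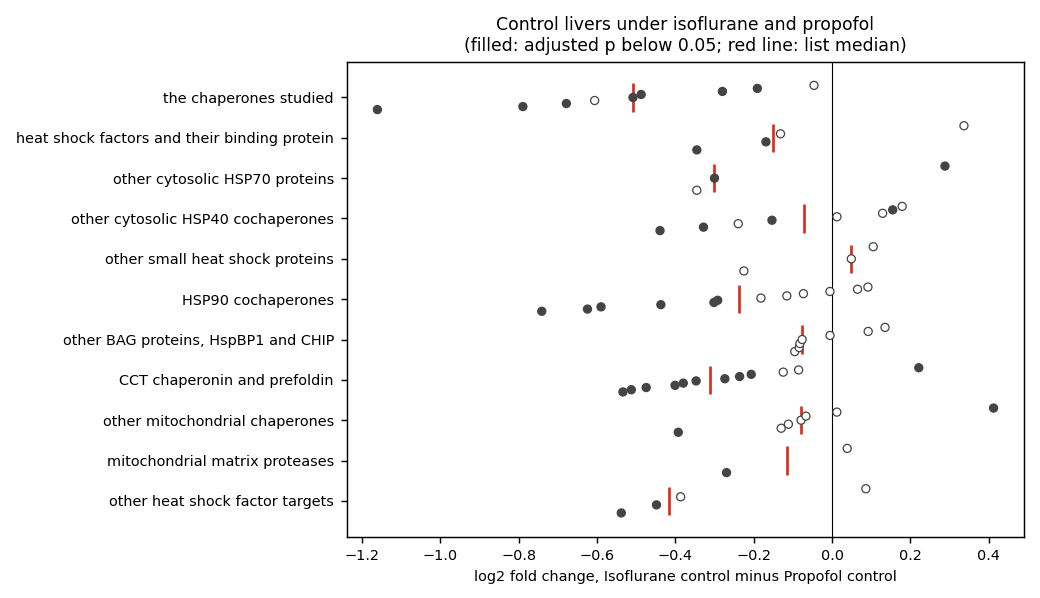
Difference between Isoflurane control and Propofol control, as log2 fold change, for the 9 chaperones tested (top row) and for 10 lists of related genes. Each point is 1 gene, filled points have an adjusted p below 0.05 and red lines are medians: 7 of the 9 chaperones and all 8 CCT subunits lie to the left of 0 and are filled.

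Between the septic groups the difference was less regular. Hsph1 was the one chaperone called, at 111, 119, 92.3 and 82.6 CPM in Isoflurane-Sepsis against 159 to 398 CPM in Propofol-Sepsis (-1.18, SE 0.28, adjusted p = 0.0247, or -0.79, SE 0.13, adjusted p = 0.0348, without library 9). The call was lost without library 3, 4, 11 or 12, with adjusted p from just above the threshold to 0.0634. With all 16 libraries in 1 fit, Hspb1, Hsp90ab1 and Hspd1 were called lower too (adjusted p = 0.0236, 0.0294 and 0.0228). In the edgeR fit of the septic groups alone without library 9, these 3 differed by -0.39, -0.18 and -0.26. None of them was called there (adjusted p = 0.610, 0.277 and 0.265). Of 10272 genes 8.66% were called lower, and scaling by library totals changed the split of calls from 55.1% to 21.4% higher with a median over all genes of -0.16. Without library 9, 1.37% of 10385 genes were called lower. Of the 62 list genes 4 were called higher and 8 lower with library 9, or 6.45% and 12.9%. Among the 10272 genes 1092 were called higher and 890 lower. No list gene was called by edgeR without library 9, when 24 had an unadjusted p below 0.05.

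The order of the 4 groups was thus not the same for all chaperones. Hsp90ab1 was highest in Propofol control, at 1034 ± 68.3 CPM (SD, n = 4), followed by Propofol-Sepsis at 881 ± 104, Isoflurane-Sepsis at 732 ± 79.6 and Isoflurane control at 643 ± 19.5. No neighbouring pair in this order passed the test with all libraries, and the 2 propofol groups differed without library 9. Bag3 was at 27.9 ± 0.944 CPM in Propofol control, 27.3 ± 3.26 (n = 3) in Propofol-Sepsis without library 9 and 30.3 ± 5.13 in Isoflurane-Sepsis, and at 19.5 ± 1.02 in Isoflurane control, which differed from Isoflurane-Sepsis and from Propofol control. Hsp90aa1 had the same order of low and high groups, with 236 ± 16.3 CPM in Propofol control, 238 ± 13.2 in Propofol-Sepsis without library 9, 236 ± 29.7 in Isoflurane-Sepsis and 168 ± 4.85 in Isoflurane control. Hsph1 instead split by anesthetic, at 185 ± 15.9 and 176 ± 14.3 CPM in the propofol groups without library 9 and at 101 ± 16.6 and 107 ± 3.80 CPM in Isoflurane-Sepsis and Isoflurane control. All 10 chaperones together summed to between 1397 and 2147 CPM in 15 libraries and to 3164 CPM in library 9.

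Genes with the most similar pattern were sought for the 5 chaperones whose log2 CPM had an SD above 0.5 over the 16 libraries, by the root mean square difference of centered log2 CPM over 10621 genes. Hspa1b and Hspb1 were each other's nearest gene (0.70). The nearest gene was Dnaja4 for Dnajb1 (0.24), Hsp90aa1 for Bag3 (0.23) and Samhd1, a nucleotide hydrolase, for Hsph1 (0.21). Among the 10 nearest genes, 5 were other members of the 10 for Dnajb1, 4 for Hspb1, 3 for Hspa1b, 2 for Bag3 and 0 for Hsph1. Without library 9 these counts were 0, 0, 0, 1 and 0, and the nearest genes were LOC314140 for Dnajb1 (0.10), Tbx3 for Hspb1 (0.47), Ddit4 for Hspa1b (0.53), Tardbp for Bag3 (0.12) and Umps for Hsph1 (0.11). The member still near Bag3 without library 9 was Hsp90aa1. Hspd1 and Hspe1, added after their values were seen, share the stretch shown above and were each other's nearest gene over the 16 libraries (0.13). Without library 9, Hspd1 was the third nearest gene to Hspe1 (0.13). Hspe1 was then not among the 10 nearest genes to Hspd1, of which Rexo4 was the nearest (0.065).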

How the data were processed

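Liver mRNA was sequenced from 16 pools of 3 rats each, 48 rats in all, as single-end stranded poly(A) libraries, and the pools came from separate animals. The deposited files hold whole-number read counts per gene symbol, made by the authors. The submitters' processing notes name STAR and rn5, and neither the counter nor the annotation is given in the sources used here. Rows that name no gene (reads on no feature, 21.6% to 25.4%, and ambiguous reads, 1.07% to 1.35%) entered neither library sizes nor tests.

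Groups were taken from the labels. Each comparison was fitted on the counts of its 8 libraries, and the interaction on all 16, by edgeR 4.0.16 in R 4.3.3 (quasi-likelihood test), TMM scaling, a minimum count of 10 and minimum total of 15, and Benjamini-Hochberg adjustment over all genes tested at 0.05. CPM values are counts scaled to a common library size with TMM factors over the 16 libraries. DESeq2 1.42.0 (the study's tool), limma-voom (limma 3.58.1), other scalings, filters, thinning and left-out libraries were alternatives, and the fits were tested on simulated data. Precision depends on the counts and on the spread between pools. The p-values weigh group differences against the spread between pools, not between single rats. Replicates differed by more than sampling noise.

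The chaperones and lists were chosen with earlier results of these data known. Names were drawn from up to 3 called genes with the smallest adjusted p per list and comparison. Not all of these are named, and none is for the septic groups compared with each other. Genes outside this rule are named as chosen after their values were seen or stand beside a named gene. Of 73 list genes, 69 were in the files, and Ahsa1, Pfdn4, Vbp1 and Clpp were not found by symbol. Promoter sequences come from RefSeq, GRCr8, a later build than that of the files, and were matched by symbol.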

Additional observations from a re-analysis of the deposited data

Results flagged for a closer look

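In Propofol-Sepsis, library 9 was separated from the other 3 pools by more of the group's range than Dixon's 95% limit allows for 6 of the chaperones. These were Hspa1b (35.1 CPM, the next library at 2.00), Hspb1 (199, next 12.9), Dnajb1 (231, next 37.9), Bag3 (82.6, next 31.1), Hsph1 (398, next 184) and Hsp90aa1 (408, next 253). Over 37 combinations of a chaperone and a group no other library was separated in this way, and chance alone flags about 1 in 20. The response to sepsis differed between the anesthetics for 2 related genes by the interaction term of edgeR, Hspa4 (0.51, adjusted p = 0.0360) and Hspb8 (1.23, adjusted p = 0.0459). These are 3.23% of the 62 related genes, near the 2.72% of all genes, and neither was called when any 1 of libraries 3, 5 to 8 or 11 to 15 was left out. Hspb8 was at 246 to 512 CPM in Isoflurane-Sepsis, higher than its controls in 4 of 4 libraries, and at 135 to 176 CPM in Propofol-Sepsis against 111 to 166 CPM in Propofol control.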

How the results depend on the processing

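Of the alternatives other than leaving out 1 library, 55 of 75 counts of calls stayed within 1.5 times and 339 of 377 differences of single chaperones kept their direction and side of the threshold, while 12 differences changed sign, 13 gained a call and 13 were no longer called, 1 of these because DESeq2 gave no adjusted p. An adjusted p below 0.01 left 14 related genes called under isoflurane, 0 chaperones and 11 related genes under propofol, 0 related genes in the interaction, 4 chaperones between the controls and 0 between the septic groups. In those comparisons with 0 calls, edgeR gave an unadjusted p below 0.05 for 3 chaperones (propofol), 12 related genes (interaction) and 4 chaperones (septic groups), while DESeq2 and limma-voom at 0.05 called 2 chaperones each under propofol and 1 each between septic groups. With all 16 libraries in 1 fit, 1 chaperone was called under isoflurane, 1 under propofol, 3 between controls and 4 between septic groups. In the interaction DESeq2 called 1 chaperone and 7 related genes, and limma-voom, no filter on low counts and thinning to the shallowest library each called 1 related gene. Without the filter 1 chaperone was called under propofol, and with library totals 3 were called between the septic groups. Leaving out libraries 9 and 10 together, chosen after seeing the data, gave 4 chaperones under propofol (Hspa1b and Hspe1 higher, Dnajb1 and Hsp90ab1 lower), 0 related genes in the interaction (11 at unadjusted p below 0.05) and 0 chaperones between septic groups (1 at unadjusted p below 0.05). The causes of these changes were not tested.

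Differences that changed sign were those of Dnajb1 under isoflurane (-0.019 with library totals, -0.016 after thinning) and, without libraries 9 and 10, those of Dnajb1 (-0.37), Hsph1 (-0.017), Bag3 (-0.00042) and Hspb1 (-0.12) under propofol, of Hspa1b (0.99), Dnajb1 (0.41) and Hspb1 (0.68) in the interaction, and of Hspa1b (0.37), Dnajb1 (0.12) and Bag3 (0.13) between septic groups.

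Leaving out 1 library at a time, the chaperones called ranged from 2 to 5 under isoflurane, 0 to 3 under propofol, 0 to 1 in the interaction, 6 to 8 between controls and 0 to 1 between septic groups. Related genes called ranged from 21 to 28, from 15 to 20 and from 0 to 9 in the first 3 of these. Under isoflurane the differences ranged from -0.091 to 0.16 for Dnajb1, -0.15 to 0.019 for Hsph1, -0.12 to 0.093 for Hspd1 and -0.046 to 0.29 for Hspe1. Under propofol they ranged from -0.41 to 1.11 for Dnajb1, -0.073 to 0.46 for Hsph1, -0.031 to 0.74 for Bag3 and -0.21 to 2.50 for Hspb1. In the interaction the ranges were -2.40 to 1.25 for Hspa1b, -1.06 to 0.44 for Dnajb1, -0.093 to 0.67 for Bag3 and -1.99 to 0.77 for Hspb1, and between septic groups -3.02 to 0.62 for Hspa1b, -1.34 to 0.16 for Dnajb1 and -0.61 to 0.15 for Bag3.

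No paired analysis was possible because the groups share no replicate numbers. Among chaperones tested, Hspa1b had the fewest reads, with 5 to 65 reads in every library but 3 and 9.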

Other observations

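Library 9 was also high for genes outside the chaperone network, named here after their values were seen. Among genes with a mean of at least 1 CPM, the largest ratio to the median of libraries 10 to 12 was that of the aldehyde dehydrogenase Aldh1a7 (8.06 against 0.307 CPM), ahead of Hspa1b and Hspb1. Cyp7a1, the rate-limiting enzyme of bile acid synthesis, was at 7.27 against 1.20 CPM. G6pc, the glucose-6-phosphatase of glucose release, was at 34.4 against 9.10 CPM, and the transporter Abcb1b at 40.5 against 12.3 CPM. Library 10, with its brain markers at 359.5 CPM, had none of the high chaperone values of library 9, and its Cryab was at 3.95 CPM against 1.29 and 1.41 CPM in libraries 11 and 12.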
